A study of Mus musculus with 14 samples.

Results

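Sir2OE1 is a stable line of MIN6, a mouse insulin-secreting beta-cell line, that was infected at passage 24 with a retrovirus carrying mouse Sirt1 and a neomycin-resistance gene. It was measured on 3 of the 14 two-colour arrays of the series, those labelled Sir2OE1 slide 1, slide 2 and slide 3, and all 23232 probes had a value on each of them. The reference was pooled RNA of Neo1 and Neo2, MIN6 lines infected with the empty neomycin-resistance virus. A second line made with the Sirt1 virus, Sir2OE2, was set against the same Neo pool on 4 arrays, and is used here to find what differs between the lines. These virus lines were selected in G418 at 280 micrograms per ml, and RNA was taken after 4 days in medium with 5 mM glucose. Sir2KD1 and Sir2KD2, which carry Sirt1 small interfering RNA vectors and were compared with the empty-vector line mU6pro, serve only for side values and for the estimate of the spread. The knockdown lines were made by transfection and selected at 400 micrograms per ml. The labels do not say whether a line is 1 clone or whether its slides came from separate cultures, so p-values speak of the spread between slides, possibly technical. Sir2OE1 is also a single line, so an effect of Sirt1 and a peculiarity of the line cannot be told apart.

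Sirt1 encodes an NAD-dependent deacetylase that removes acetyl groups from histones and from transcription factors and coactivators such as p53, the FoxO factors and PGC-1alpha. In beta cells it is known for raising glucose-stimulated insulin secretion, with repression of the uncoupling protein gene Ucp2. Epithelial genes enter the results below because beta cells are epithelial: they hold to each other by cadherin and claudin junctions, and the splicing factor Esrp1 keeps transcripts in their epithelial forms.

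Values are the deposited log2 ratios, with the sign turned on slide 3, where the labels put the line in channel 1, and kept on slides 1 and 2, where they put it in channel 2. The sources used here do not name the channel on top of the deposited ratio. A positive value is therefore called the plus side and a negative one the minus side, and whether plus means more RNA in Sir2OE1 is not settled. The authors had centred each probe over arrays, so the turn between slides also could not be read from a header. Slide 2 is outside the sum that the centring set to 0. As deposited it had r = 0.23 with slide 1, of the same orientation, and -0.0986 with slide 3, of the opposite one. With the centring undone its r was 0.57 with slide 1 and 0.35 with slide 3, so the negative sign appears only in centred values. With no sign turned, limma called 0 probes in Sir2OE1, with 930 at an unadjusted p under 0.05. The centring can remove a ratio that arrays of both orientations share unturned, so this count does not settle the turn. All sides and calls below rest on the turn. A ratio carries no level, so the labelled cell type could not be checked against its markers, and in bulk RNA a change in the number of cells of a type and in the RNA per cell cannot be told apart.

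The arrays of the line were alike in centre, with medians from -0.01 to 0.00, and had SDs from 0.47 to 0.57. Over all probes r between its turned arrays was 0.0986 to 0.23. Between turned arrays of Sir2OE1 and Sir2OE2 it was -0.0856 to 0.39, highest in pairs of opposite orientation. Agreement over all probes therefore does not set the line apart. The precision is limited by the number of arrays of the line, and signal over background is unknown. A transcript read many times over shows the spread of single probes: Gapdh, a glycolytic enzyme often used as a reference gene, was named by 232 probes, of which 7 carried a ratio shared by many probes. The other 225 had a median log2 ratio of -0.24 in Sir2OE1 (SD between probes 0.13) and 0.01 in Sir2OE2. None was called by limma, with 32 at an unadjusted p under 0.05 in Sir2OE1.

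The Sirt1 probe stood close to 0 in the line that carries the Sirt1 virus. Its log2 ratios were -0.08, 0.21 and 0.13 on slides 1 to 3, so the arrays lay on both sides of 0, and the fitted value was 0.08 ± 0.12 (SE, n = 3 arrays; limma adjusted p = 0.933). The sources used here do not place the probe on the transcript, so whether it reads the viral copy is unknown. The other sirtuins with a probe, Sirt2 to Sirt6, lay between -0.22 and 0.27 and were not called. Pdx1, the homeobox factor required for the pancreas and for insulin gene transcription, was at 0.12 ± 0.13 (adjusted p = 0.868) and Ins2, an insulin gene, at -0.21 ± 0.18 (adjusted p = 0.847). Ins2 was 1 of 329 probes that carried the same ratio on at least 5 overexpression arrays, and such a value may hold no information of its own.

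The largest changes of named genes in Sir2OE1 were mixed on both sides. Esrp1, Ighm, Spint1 and Epcam led the minus side, and all of these but Ighm are epithelial genes. Genes of other kinds, such as Mest and Tmed6, lay further out than Cldn7, a further epithelial gene. The plus side was led by 2 lectin-like receptor genes, Kansl1l, Trpc6, Uchl1 and Sod3. A probe was called where limma's adjusted p was under 0.05. Of 23230 tested probes, 247 (1.06%) were called in Sir2OE1, 109 plus (0.469%) and 138 minus (0.594%), and 2232 had an unadjusted p under 0.05. Each of the 247 lay on its side on 3 of 3 arrays. Their absolute log2 ratios ran from 0.53 to 3.45 with a median of 1.03, a 2.04-fold difference, where the median over all tested probes was 0.18. An absolute ratio of at least 1 was found for 49 plus and 78 minus calls, and of at least 2 for 11 and 13. The count was 86, 81 and 47 without slide 1, 2 and 3 of Sir2OE1. Because all lines share 1 estimate of the spread it was 167 without slide 1 of Sir2OE2, and 183, 178 and 221 without its slides 2, 3 and 4.

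**Figure D1:**
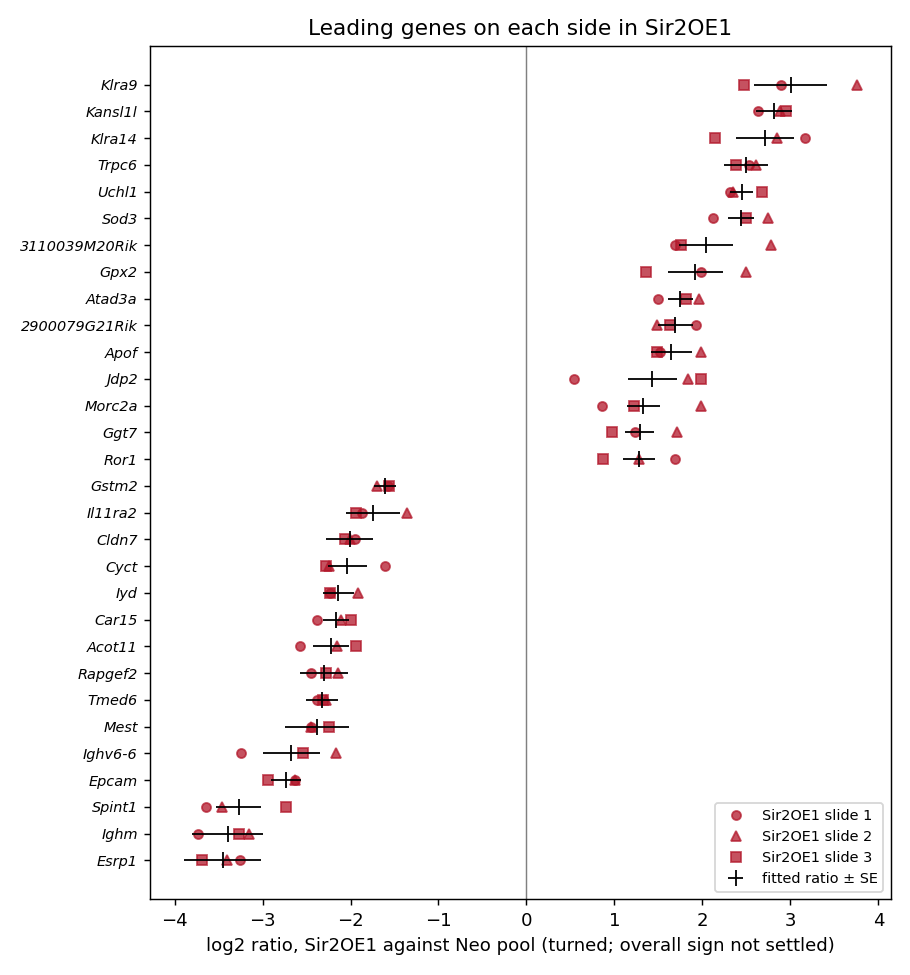
Log2 ratio of Sir2OE1 against the Neo pool (horizontal axis, turned scale) for the 15 genes furthest out on each side among called probes; symbols are the 3 arrays and the bar is the fitted value with its SE. Every array lies on the same side as its fitted value, from 3.00 for Klra9 to -3.45 for Esrp1, and Jdp2 and Morc2a show the widest scatter among the smaller ratios.

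Esrp1, the splicing regulator that maintains epithelial isoforms, was furthest out of all named genes. Its log2 ratios were -3.26, -3.41 and -3.69 on slides 1 to 3, all well below 0, and the fit gave -3.45 ± 0.44 (adjusted p = 0.0042), 11.0-fold. Spint1, an inhibitor of the membrane proteases of epithelia, had -3.65, -3.46 and -2.74, with slide 3 nearest to 0, and a fitted -3.27 ± 0.26 (adjusted p = 0.000243). Cldn7, a tight junction protein, was nearly equal on all arrays, between -2.07 and -1.95 (fitted -2.01 ± 0.27, adjusted p = 0.0053). Epcam, an epithelial adhesion molecule, had -2.63, -2.63 and -2.93 (fitted -2.74 ± 0.17, adjusted p = 7.4e-05), and it differed between the lines, as given below. The calls of Spint1 and Epcam held without any 1 overexpression array, and those of Esrp1 and Cldn7 were lost without at least 1.

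Among 39 measured genes of epithelial junctions and epithelial splicing, 7 had a minus call and 0 a plus call. On the minus side that is 17.9%, against 0.788% of all 15099 named genes (1.38% of them had a call on either side). Beside the 4 above these were Ap1m2, the sorting adaptor of epithelial cells (-1.23 ± 0.19), the claudin Cldn3 (-0.62 ± 0.11) and the keratin Krt19 (-0.58 ± 0.11), with adjusted p of 0.0106, 0.026 and 0.0349. The list was drawn up with earlier results of these arrays known, so its direction is no independent evidence. Its median was -0.26 against 0.01 over all named genes, 28 of 39 members lay below 0, and 16 had a probe on the minus side on 3 of 3 arrays, where 16.3% of all genes did. Without a Sir2OE1 array the minus count was 4, 4 and 3 (slides 1 to 3), and without a Sir2OE2 array 5, 5, 5 and 7 (slides 1 to 4).

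Members that did not pass the test were far out too in places, with a wider spread. Dsp, the desmosome protein desmoplakin, had -2.53, -1.81 and -1.98 and a fitted -2.12 ± 0.64 (adjusted p = 0.226). Esrp2, the partner of Esrp1, was at -1.10 ± 0.23 (adjusted p = 0.0582), and the cadherin of epithelial junctions, Cdh1, at -0.45 ± 0.14 (adjusted p = 0.253). Other members stood near 0 or above it, among them Lsr, Tjp3 and Ovol1, and 0 members were called on the plus side (0 at an unadjusted p under 0.05 as well, against 13 on the minus side). Of 35 mesenchymal and matrix genes 0 were called on either side by limma, with 1 at an unadjusted p under 0.05 on each. Calls were as rare as 0.596% (plus) and 0.788% (minus) among all named genes, so 0 of 35 says little. Of all 15099 named genes, 934 (plus) and 811 (minus) had an unadjusted p under 0.05. The median of the mesenchymal and matrix list was -0.01, with 17 genes above 0 and 18 below, so it leaned to neither side. Vim, the mesenchymal filament protein, was at 0.08 ± 0.26, the repressor Zeb1 at 0.43 ± 0.18 and the mesenchymal factor Twist1 at 0.66 ± 0.37. The lowest member, the collagen gene Col3a1, was at -0.65 ± 0.21.

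**Figure D2:**
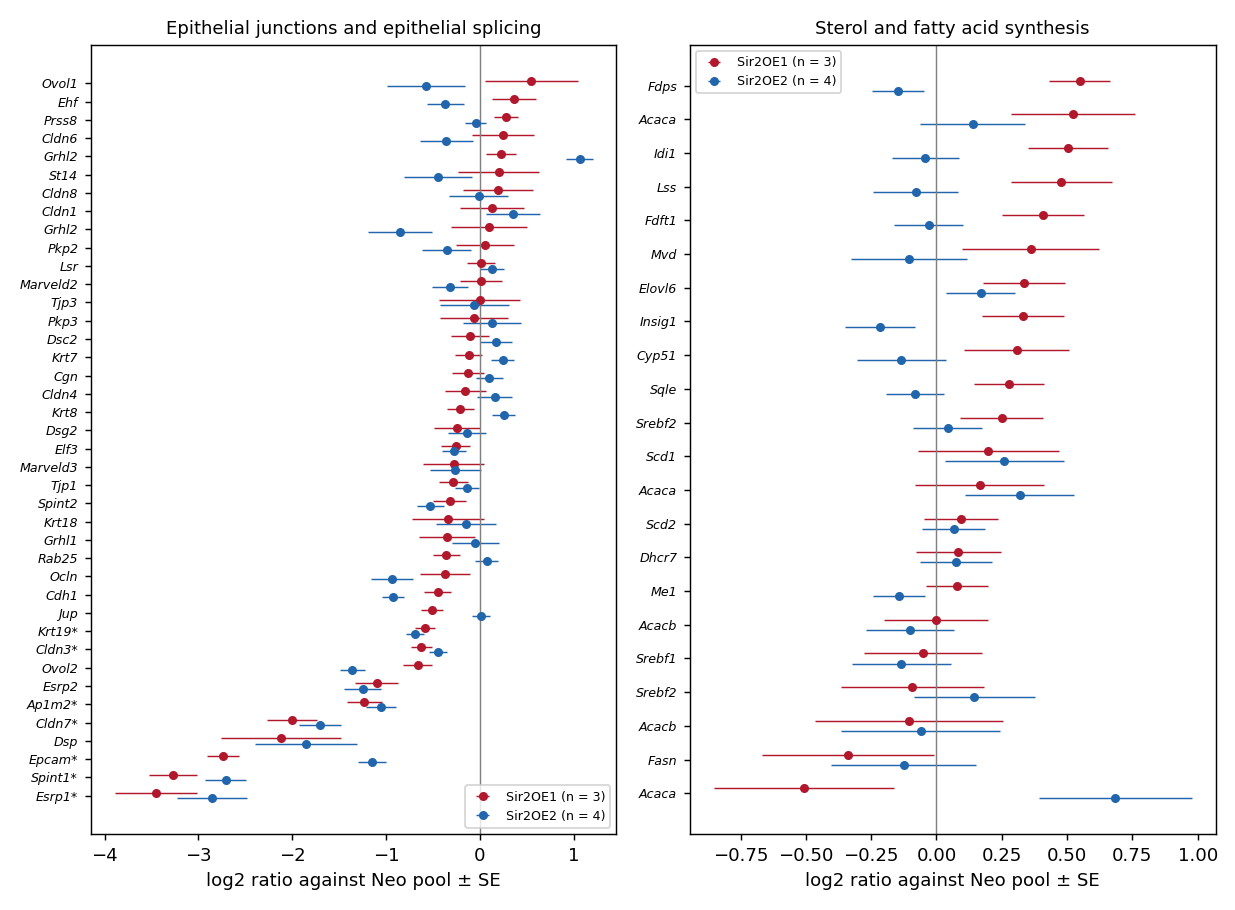
Log2 ratio against the Neo pool with its SE for each probe of the epithelial list (left) and of the sterol and fatty acid list (right), in Sir2OE1 (upper point of each pair, n = 3 arrays) and Sir2OE2 (lower point, n = 4); probes sharing the common ratio are left out, an asterisk marks a call in Sir2OE1, and a gene with several probes appears several times. The epithelial list reaches -3.45 at Esrp1 while most members lie within 1 of 0, and on the sterol list Fdps, Idi1 and Lss lie at 0.55, 0.50 and 0.48 in Sir2OE1 and between -0.15 and -0.04 in Sir2OE2.

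Promoters of epithelial genes are often read for the E-box letters CACCTG, the site that the Snail and Zeb repressors are known to bind. The windows of 3 of the 4 epithelial genes named above are shown for that reason, that of Esrp1 not being used here, from RefSeq (GRCm38.p6, plus strand, 250 bases before the start to 50 after it), 5′ to 3′, with CACCTG and its reverse complement CAGGTG in capitals. They are Epcam at chr17:87635729-87636028, Cldn7 at chr11:69965171-69965470 and Spint1 at chr2:119237110-119237409.
Epcam: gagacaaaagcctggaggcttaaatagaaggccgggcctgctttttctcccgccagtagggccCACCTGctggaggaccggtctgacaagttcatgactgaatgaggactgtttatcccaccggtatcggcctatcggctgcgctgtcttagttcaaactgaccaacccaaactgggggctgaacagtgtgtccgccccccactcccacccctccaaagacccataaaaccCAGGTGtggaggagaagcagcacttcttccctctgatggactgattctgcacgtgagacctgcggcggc
Cldn7: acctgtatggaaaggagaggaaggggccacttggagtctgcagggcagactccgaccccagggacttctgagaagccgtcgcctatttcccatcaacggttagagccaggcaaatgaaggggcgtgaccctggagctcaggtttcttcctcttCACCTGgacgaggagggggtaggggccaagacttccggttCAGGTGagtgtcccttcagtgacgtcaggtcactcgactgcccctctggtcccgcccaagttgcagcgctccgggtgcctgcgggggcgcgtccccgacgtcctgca
Spint1: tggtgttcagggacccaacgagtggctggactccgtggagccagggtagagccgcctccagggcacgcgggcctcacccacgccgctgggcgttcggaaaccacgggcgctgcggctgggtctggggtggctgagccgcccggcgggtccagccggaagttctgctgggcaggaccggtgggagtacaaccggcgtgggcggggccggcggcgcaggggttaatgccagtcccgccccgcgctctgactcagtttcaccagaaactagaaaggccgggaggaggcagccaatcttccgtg
Epcam and this Cldn7 window each held 1 CACCTG and 1 CAGGTG, which do not overlap, while the Spint1 window and another Cldn7 start at chr11:69964529-69964828 held 0. Over the measured epithelial list 20 of 29 windows (69.0%, 24 genes) held at least 1 match on either strand, against 20.2% of all 32851 windows in the table. The share was 21.4% among windows of genes with a minus call and 20.4% among those with a plus call. A match is a description of letters and not of binding.

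The plus side was led by 2 genes of the Ly49 family, lectin-like receptors of natural killer cells encoded in a cluster of close relatives. Klra9 had 2.89, 3.76 and 2.47 on slides 1 to 3, highest on slide 2, with a fitted 3.00 ± 0.42 (adjusted p = 0.0069). Klra14 had 3.17, 2.85 and 2.14 and a fitted 2.71 ± 0.33 (adjusted p = 0.0032). A further member, Klra5, was at 2.08 ± 0.62 and not called (adjusted p = 0.217), and the median of the 16 family members measured was 0.14. The family was picked after its values were seen. Its members are similar in sequence, so probes may read each other's transcripts and single values are uncertain. Of 13 genes that mark immune and vascular cells 0 were called, with 0 at an unadjusted p under 0.05 and values between -0.64 and 0.26. With 0.596% of all named genes called plus and 0.788% minus, 0 of 13 says little.

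Kansl1l, a relative of a subunit of the NSL histone acetyltransferase complex, was far out on every array, at 2.63, 2.88 and 2.95 (fitted 2.82 ± 0.21, adjusted p = 0.000167). Atad3a, an ATPase of the mitochondrial inner membrane, had 1.50, 1.96 and 1.81 (fitted 1.75 ± 0.14, adjusted p = 0.000292). Both stayed near 0 in every other line of the series, as described below. Trpc6, a calcium-permeable cation channel, was at 2.53, 2.60 and 2.38, within a narrow range (fitted 2.50 ± 0.25, adjusted p = 0.00128). Its change was not particular to the line: it was also called plus in Sir2OE2, at 2.575 ± 0.21, and in Sir2KD1, at 1.56 ± 0.25.

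Enzymes of oxidant defence and glutathione use appeared on both sides. Sod3, the secreted superoxide dismutase, had 2.12, 2.75 and 2.49 (fitted 2.44 ± 0.15), and Gpx2, a glutathione peroxidase of gut epithelium, had 1.98, 2.50 and 1.36 (fitted 1.92 ± 0.32). Ggt7, of the gamma-glutamyl transferase family, was at 1.29 ± 0.17. On the minus side the glutathione transferase Gstm2 was close to equal on all arrays, at -1.58, -1.70 and -1.56 (fitted -1.61 ± 0.12). A look at all glutathione transferases, made after that value was seen, found 4 minus calls and 0 plus calls among 22 measured members: Gstm2, Gstm3 (-1.25 ± 0.18), Gstt1 (-1.23 ± 0.15) and Mgst3 (-0.99 ± 0.14). That is 18.2% of a family picked for its values, against 0.788% of all genes, and the family median was -0.18. All 4 were called on the minus side in Sir2OE2 as well, Gstm2 at -1.40 ± 0.10. The mu-class members are similar in sequence and their probes may share signal. Of the 20 antioxidant genes on the list, Sod3 was the 1 plus call, with 0 minus calls (Gpx2 and the transferases above are not on it), with a median of -0.07.

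The remaining leading plus-side genes covered various roles. Uchl1, the ubiquitin hydrolase of neurons and endocrine cells, was even across arrays at 2.31, 2.34 and 2.67 (fitted 2.45 ± 0.13). It was called plus in the other lines too, at 3.18 in Sir2OE2, 1.26 in Sir2KD1 and 1.81 in Sir2KD2. Apof, an apolipoprotein that affects cholesteryl ester transfer, was at 1.65 ± 0.24, the gene-silencing ATPase Morc2a at 1.33 ± 0.19 and the Wnt receptor Ror1 at 1.28 ± 0.18, although the other Ror1 probe was at 0.08 and not called. Jdp2, a repressor of AP-1 targets, had 0.54, 1.83 and 1.98, with slide 1 far below the others (fitted 1.43 ± 0.28, adjusted p = 0.0443). The transcripts 3110039M20Rik and 2900079G21Rik were at 2.04 ± 0.31 and 1.69 ± 0.20.

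The other leading minus-side genes also covered various roles. Mest, an imprinted gene expressed in growing mesodermal tissue, had -2.45, -2.45 and -2.25 (fitted -2.38 ± 0.36). Tmed6, a p24 protein of vesicle transport, had -2.38, -2.28 and -2.31 (fitted -2.33 ± 0.18). Iyd, which recovers iodide from iodotyrosines, was at -2.14 ± 0.18, the carbonic anhydrase Car15 at -2.16 ± 0.14 and the Rap activator Rapgef2 at -2.30 ± 0.27. These genes were called minus in Sir2OE2 too: Mest at -3.33, Tmed6 at -1.94, Iyd at -1.12, Car15 at -1.54 and Rapgef2 at -2.64. In the knockdown lines Mest was called minus, at -2.85 in Sir2KD1 and -2.72 in Sir2KD2. Car15 was called plus there, at 1.34 and 1.16. Cyct, the testis form of cytochrome c, was called with both of its probes, at -2.04 ± 0.22 and -1.94 ± 0.14. Il11ra2, a relative of the interleukin-11 receptor chain, was at -1.74 ± 0.30. The interferon-induced membrane proteins Ifitm2 and Ifitm3 were called at -1.31 ± 0.15 and -1.29 ± 0.18, 2 of 5 family members measured (40.0% of a family picked after seeing the values, against 0.788% of all genes), while of 25 interferon response genes 0 were called, with 4 plus and 2 minus at an unadjusted p under 0.05.

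Several leading values rested on 1 probe of a gene that other probes did not bear out. Acot11, an acyl-CoA thioesterase, was called at -2.22 ± 0.21, and its other probe was at -0.17. The called probe was called in Sir2OE2 too, at -2.15 ± 0.18. Single probes named for immunoglobulin heavy chain genes were called at -3.39 ± 0.40 (Ighm) and -2.67 ± 0.32 (Ighv6-6), but the other 8 Ighm probes lay between -0.43 and 0.30 and the other 33 Ighv6-6 probes between -0.77 and 0.90, with none called. Of 19 called genes with several probes, 3 (Igf1r, Cyct and Ccnd2) had more than 1 probe called on the same side, and 13 had all probes on that side. A further 35 called probes had no single gene name, 19 of them plus, at 0.77 to 3.10, and 16 minus, at -1.74 to -0.80.

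Of the 20 gene lists examined, 12 had a member called in Sir2OE1 and 8 had none. Beta-cell identity genes gave 1 plus call, the islet homeobox factor Isl1 (0.95, 0.69 and 0.45; fitted 0.70 ± 0.13, adjusted p = 0.0362), and 1 minus call, the glucose transporter Slc2a2 (-0.74, -0.97 and -0.99; fitted -0.90 ± 0.16, adjusted p = 0.0254), of 16 measured. Each is 6.25% of the list, against 0.596% of all genes plus and 0.788% minus. Among 29 genes of insulin secretion and granules, the prohormone convertase Pcsk1 (0.78 ± 0.13) and the vesicle GTPase Rab3a (0.67 ± 0.13) were called, both plus (6.90% of the list), with a list median of -0.18. On both lists 0 calls were left without slide 1, 2 or 3 of Sir2OE1. The ratio carried in common by many probes, as by Ins2 above, was shared by 4 of these 29 and 3 of the 16. It lies near -0.21 in this line and is part of that median.

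Neuronal genes gave 3 plus calls and 1 minus call of 28 measured, against 0.596% and 0.788% of all genes. They were Uchl1, the adhesion protein Cntn1 (1.14 ± 0.18; its other probe 0.96, not called), the RNA-binding protein Elavl4 (0.63 ± 0.11), and, on the minus side, the decarboxylase Ddc (-0.85 ± 0.15). Without slide 1, 2 or 3 of Sir2OE1, 1 plus call and 0 minus calls were left. Of the 28 genes, 12 had a probe on the plus side on 3 of 3 arrays, where 19.2% of all genes did. On the minus side 4 had one, where 16.3% of all genes did. The median was 0.07, with 16 genes above 0 and 12 below. An unadjusted p under 0.05 was found for 6 plus-side and 5 minus-side members.

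Lists tied to Sirt1 by its known substrates and roles had 1 call each or none, so their shares rest on single genes beside the 0.596% plus and 0.788% minus of all genes. Of 24 uncoupling and mitochondrial regulators the brown-fat uncoupling protein Ucp1 was called, at -1.65, -1.09 and -1.28 (fitted -1.35 ± 0.15, adjusted p = 0.0023), and no other (4.17% of the list); this call held without any 1 of the 7 overexpression arrays. Among 18 p53 targets the Polo-like kinase gene Plk2 had a minus call (-0.78 ± 0.15; 5.56% of the list), beside a list median of 0.19 on the plus side. Of 19 FoxO targets and 17 sirtuin and NAD genes 0 were called by limma, with 0 at an unadjusted p under 0.05. Stress and growth lists had 1 call each or none: the pseudokinase Trib3 (0.86 ± 0.17) of 29 unfolded protein response genes, the small heat shock protein Hspb8 (1.06 ± 0.19) of 10 chaperones, the muscle phosphofructokinase Pfkm (-0.94 ± 0.17) of 19 glycolysis genes, Junb (-0.78 ± 0.16) of 20 immediate early genes and the cyclin Ccnd2 of 45 cell cycle genes, with its 2 probes at -0.94 ± 0.17 and -0.79 ± 0.14. Without slide 1, 2 or 3 of Sir2OE1 the calls of Plk2, Trib3, Hspb8, Pfkm and Junb were all lost, and that of Ccnd2 was lost without slide 2 or 3. The lists of 9 other islet endocrine genes and 21 exocrine and duct genes had 0 calls, with 0 and 2 members at an unadjusted p under 0.05.

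**Figure D3:**
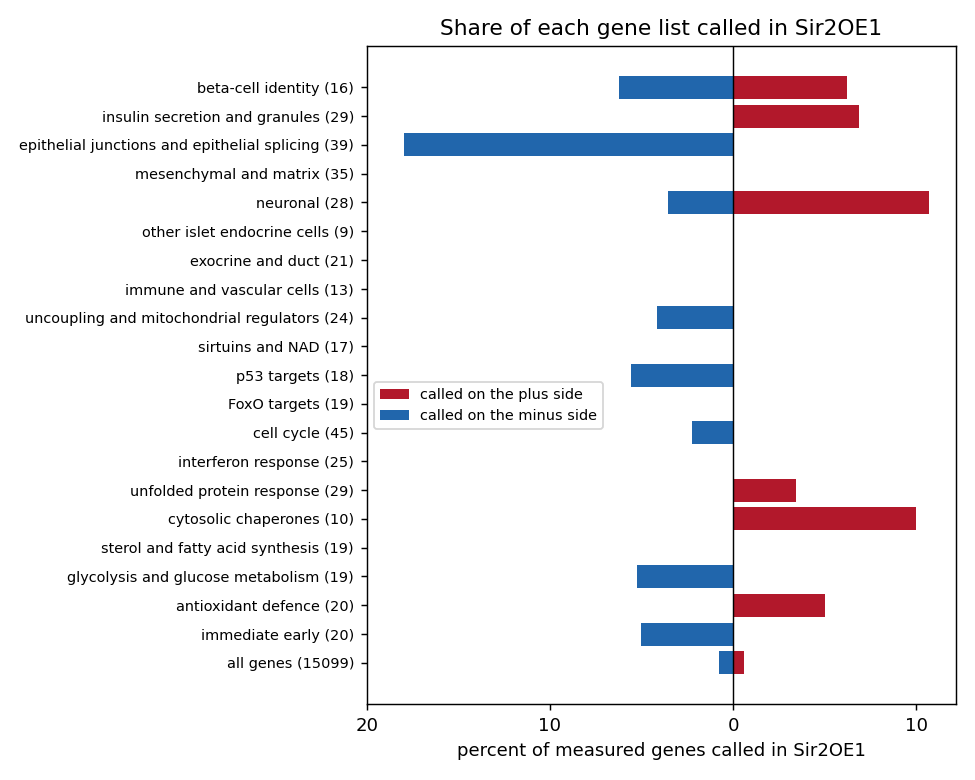
Percent of the measured genes of each list (number in parentheses) with a probe called in Sir2OE1, minus side to the left and plus side to the right, with all 15099 named genes in the lowest row. The epithelial list extends furthest, to 17.9% on the minus side, against 0.788% of all genes; most other bars are 1 or 2 genes.

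The second question is what sets Sir2OE1 apart from Sir2OE2, and the difference of the lines' ratios was tested for it, in which the shared Neo pool cancels. Kansl1l, Klra14, Defb41 and Atad3a (plus) and Dlk1, Upk3a and Acot7 (minus) were the named genes furthest apart between the overexpressing lines among those called in Sir2OE1 with the same sign. The difference was called for 75 of 23230 probes (0.323%), 26 plus (0.112%) and 49 minus (0.211%), with 1738 at an unadjusted p under 0.05. Of these, 20 (0.0861% of the tested probes) were also called in Sir2OE1 with the same sign, 10 on each side, 15 of them with a gene name. In Sir2OE2 those 20 were not called for 11, called on the other side for 8 and on the same side for 1. The count of 20 was 13, 6 and 8 without slides 1, 2 and 3 of Sir2OE1 and 12, 10, 12 and 13 without slides 1 to 4 of Sir2OE2. The count of 75 was 42, 20 and 34 without slides 1 to 3 of Sir2OE1 and 23, 18, 35 and 41 without slides 1 to 4 of Sir2OE2.

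**Figure D4:**
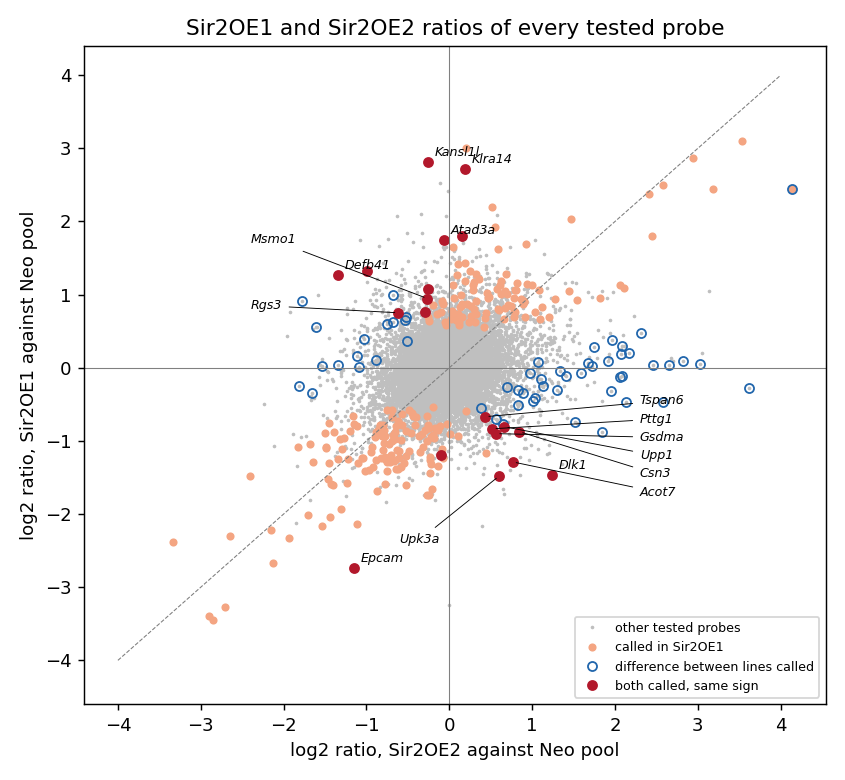
Fitted log2 ratio against the Neo pool of each of the 23230 tested probes, in Sir2OE1 (vertical) and Sir2OE2 (horizontal); the dashed line marks equal ratios, and both axes share the Neo pool. The 20 probes called in Sir2OE1 and in the difference with the same sign are filled dark red, with Kansl1l at 2.82 and -0.26, Dlk1 at -1.46 and 1.24 and Epcam at -2.74 and -1.15.

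Kansl1l and Atad3a were far out in Sir2OE1 alone among the lines. Kansl1l was at 2.63, 2.88 and 2.95 in Sir2OE1, against -0.21, -0.14, -0.31 and -0.36 in Sir2OE2, a difference of 3.07 ± 0.27 (adjusted p = 0.0018). Atad3a was at 1.50, 1.96 and 1.81 in Sir2OE1, against -0.15, 0.19, 0.00 and -0.28 in Sir2OE2, a difference of 1.81 ± 0.19 (adjusted p = 0.0053). In neither gene did the arrays of the lines overlap, which the choice of genes by a called difference makes likely. In Sir2KD1 and Sir2KD2, against mU6pro, Kansl1l was at 0.08 and -0.10 and Atad3a at 0.02 and 0.07, not called in either; the differences of Sir2OE1 from those lines were not tested. Both genes kept their calls, in Sir2OE1 and in the difference, without any 1 of the 7 overexpression arrays.

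Klra14 was at 3.17, 2.85 and 2.14 in Sir2OE1, against -0.07, -0.06, 0.25 and 0.65 in Sir2OE2. The difference was 2.52 ± 0.43 (adjusted p = 0.044), and its call was lost without at least 1 array. For its relative Klra9 the fitted values were 3.00 in Sir2OE1 and 0.20 in Sir2OE2, and the difference of 2.80 did not pass (adjusted p = 0.0726).

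Defb41 and Dlk1 passed the test in both overexpressing lines, with opposite signs. Defb41, a beta-defensin known from the male reproductive tract, was at 1.17, 1.62 and 1.05 in Sir2OE1, against -1.32, -1.43, -1.34 and -1.29 in Sir2OE2, a difference of 2.61 ± 0.19 (adjusted p = 0.00031). Dlk1, the imprinted Notch-like protein of precursor and endocrine cells, was at -1.52, -1.30 and -1.55 in Sir2OE1, against 1.29, 1.18, 1.13 and 1.37 in Sir2OE2, a difference of -2.70 ± 0.19 (adjusted p = 0.00031). The pair thus ran in contrary directions, with a gap of over 2 on the log2 scale between the nearest arrays. In the knockdown lines Defb41 was at -0.05 and -2.20 and Dlk1 at -4.07 and -0.88, far apart between the lines of that kind, whose difference was not tested.

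In all, 8 probes were called on opposite sides in Sir2OE1 and Sir2OE2, 3 of them plus and 5 minus in Sir2OE1, and the difference was called for all 8. Beside Defb41 and Dlk1 the named ones were Rgs3, Csn3, Upp1, Gsdma and Pttg1. Rgs3, which shortens G-protein signals, was at 0.63, 1.01 and 0.66 in Sir2OE1 and between -0.66 and -0.56 on all Sir2OE2 arrays, although its other probe was at -0.03 in Sir2OE1 and not called. Csn3, the milk protein kappa-casein, was at -0.88, -0.68 and -1.03 in Sir2OE1, against 0.71, 0.90, 0.88 and 0.88 in Sir2OE2. Upp1, which splits uridine, was at -0.81 ± 0.16 in Sir2OE1 and 0.67 ± 0.13 in Sir2OE2. Gsdma, a pore-forming gasdermin of skin, was at -0.90 ± 0.13 in Sir2OE1 and 0.57 ± 0.11 in Sir2OE2. Pttg1, the securin that holds sister chromatids together until anaphase, was at -0.83 ± 0.12 in Sir2OE1 and 0.52 ± 0.10 in Sir2OE2. The differences of Csn3, Pttg1 and Rgs3 kept their calls without any 1 array, and those of Upp1 and Gsdma did not. The calls in Sir2OE1 itself of these genes and of Dlk1 were each lost without at least 1 array. Defb41 kept its call there. Both knockdown lines were called for Rgs3, at -2.11 and -2.15, and for Csn3, at 2.77 and 1.82, each on the side of Sir2OE2. The same held for Gsdma, at 1.365 and 0.96. Dlk1 was called in both knockdown lines on the side of Sir2OE1, at -4.07 and -0.88.

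**Figure D5:**
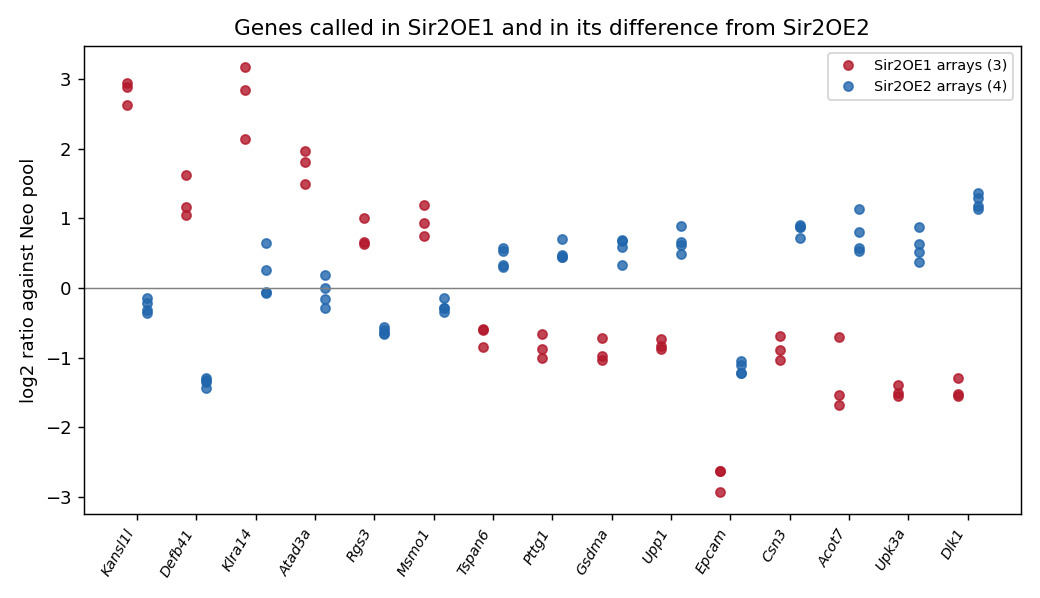
Log2 ratio against the Neo pool on each array for the 15 named genes called in Sir2OE1 and in the difference with the same sign, ordered by the difference: Sir2OE1 (left of each pair, 3 arrays) and Sir2OE2 (right, 4 arrays). The arrays of the lines do not overlap for any of the 15, which the choice of genes makes likely, and Epcam is the 1 gene that is called with the same sign in both.

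The other named genes of this group, Epcam aside, had the larger absolute ratio in Sir2OE1 and lay on the other side of 0 in Sir2OE2, where they were not called. Msmo1, an enzyme of cholesterol synthesis that removes methyl groups from sterols, was at 0.94, 1.19 and 0.74 in Sir2OE1, against -0.34, -0.29, -0.29 and -0.14 in Sir2OE2 (difference 1.21 ± 0.16, adjusted p = 0.0106). Upk3a, a uroplakin of the bladder lining, was at -1.48 ± 0.17 in Sir2OE1 and 0.60 ± 0.14 in Sir2OE2, a difference of -2.08 ± 0.22 (adjusted p = 0.0053). Against mU6pro it was at -1.55 ± 0.17 in Sir2KD1, called and on the same side as in Sir2OE1, and at -0.56 ± 0.14 in Sir2KD2, not called. Acot7, a brain acyl-CoA thioesterase, was at -1.53, -1.68 and -0.70 in Sir2OE1, with slide 3 nearest to 0, and at 0.77 ± 0.20 in Sir2OE2. Tspan6, a tetraspanin, had the smallest difference of the group, at -0.67 ± 0.13 in Sir2OE1 and 0.44 ± 0.11 in Sir2OE2.

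Epcam was minus in both overexpressing lines, and further out in Sir2OE1. It was at -2.63, -2.63 and -2.93 in Sir2OE1, against -1.22, -1.22, -1.10 and -1.04 in Sir2OE2, a difference of -1.59 ± 0.22 (adjusted p = 0.0169), 3.00-fold. The call of the difference was lost without at least 1 array. In Sir2KD1 it was at -2.18 ± 0.17 and called, and in Sir2KD2 at 0.45 ± 0.14 and not called. For Esrp1, Spint1 and Cldn7 the difference between the overexpressing lines was not called, at -0.60 ± 0.57, -0.56 ± 0.34 and -0.30 ± 0.35. In Sir2OE2 these genes were at -2.85, -2.71 and -1.71, called on the minus side there too. Sod3 was the counterpart, on the plus side in both lines with the smaller ratio in Sir2OE1: 2.12, 2.75 and 2.49 in Sir2OE1 and 4.13 ± 0.12 in Sir2OE2, a difference of -1.69 ± 0.19 (adjusted p = 0.0065). Against mU6pro Sod3 was called plus in both knockdown lines too, at 2.775 in Sir2KD1 and 2.275 in Sir2KD2.

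Genes of sterol synthesis leaned to the plus side in Sir2OE1 without passing the test. Of 19 measured genes of sterol and fatty acid synthesis 0 were called by limma on either side, against 0.596% of all genes plus and 0.788% minus. An unadjusted p under 0.05 was found for 4 plus-side members and 0 minus-side members, against 934 and 811 of all 15099 named genes. The list median was 0.20 against 0.01 over all genes, and 15 members lay above 0. A probe on the plus side on 3 of 3 arrays was found for 9 members, where 19.2% of all genes had one. Fdps, which makes farnesyl diphosphate, was at 0.71, 0.57 and 0.36 (fitted 0.55 ± 0.12, adjusted p = 0.0614) in Sir2OE1 and at -0.15 in Sir2OE2. The isomerase Idi1 was at 0.50 ± 0.15 and the cyclase Lss at 0.48 ± 0.19 in Sir2OE1, against -0.04 and -0.08 in Sir2OE2. Fasn, the fatty acid synthase, lay on the other side at -0.34 ± 0.33. Msmo1, called above, is not on the list.

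Most probes with a called difference were not called in Sir2OE1. Of the 75 probes, 54 were not called in Sir2OE1, 38 with a negative difference and 16 with a positive one, and 49 of the 54 were called in Sir2OE2 while the rest were called in neither line. The transcript 9230117E06Rik was at -0.02, -0.37 and -0.47 in Sir2OE1, against 3.32, 3.70, 3.99 and 3.48 in Sir2OE2, a difference of -3.91 ± 0.27. Igfbp4, a binding protein of insulin-like growth factors, was at 0.02, 0.09 and 0.01 in Sir2OE1, close to the Neo pool on every array, and at 2.66 ± 0.21 in Sir2OE2. Psors1c2, the tumour antigen Magea3 and the nuclear matrix protein Matr3 had differences of -3.05 ± 0.38, -2.72 ± 0.33 and -2.60 ± 0.40.

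With a positive difference, Sult1d1, a sulfotransferase of catecholamines, was at 0.41, 0.91 and 1.43 in Sir2OE1, not called, against -1.78 ± 0.23 in Sir2OE2. The serine protease Prss23 was at 0.99 ± 0.21 in Sir2OE1 (adjusted p = 0.0544) and -0.68 ± 0.17 in Sir2OE2. The calcium-binding protein Necab2, the pseudogene Speer8-ps1 and the ribonuclease Ang, angiogenin, were at -0.25, 0.03 and 0.40 in Sir2OE1 and at -1.81, -1.54 and -1.03 in Sir2OE2. Among list members, Ldha, the lactate dehydrogenase that mature beta cells hold low, was at -0.64, -0.46 and -0.41 in Sir2OE1 (not called) and 0.83 in Sir2OE2, a difference of -1.33 ± 0.19 (adjusted p = 0.0199). The neuronal stathmin Stmn2 was at 0.47 ± 0.16 in Sir2OE1 and 2.32 in Sir2OE2. The beta-cell peptide Ucn3 was at -0.70 ± 0.16 in Sir2OE1 and 0.56 in Sir2OE2 for 1 probe, while its other probe was at 0.18 in Sir2OE1.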

How the data were processed

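RNA of Sir2OE1 (3 arrays), Sir2OE2 (4) and the knockdown lines (7) was hybridised with the RNA of their controls on two-colour arrays. The deposited values are log2 ratios of the channels; the sources used here do not name their software, background correction or normalization. The deposited values of each probe sum to 0 over 6 of the 7 arrays of a kind (Sir2OE1 slide 2 is outside the sum), so the authors centred them, and undoing this gives whole-number percents for 100% of probes (relative tolerance 1e-05). Rounding of these percents moves a called ratio by at most 0.0995.

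Signs were turned by the channel of the line. Limma 3.58.1 in R 4.3.3 (lmFit, eBayes, residual df 8, prior df 2.54) fitted a coefficient per line and a dye term per kind on all 14 arrays, since centring differs by kind. Benjamini-Hochberg adjustment ran over the 23230 probes with at least 2 values per line, and the threshold was 0.05. The ratio against 0 leaves out the spread of the Neo lines. The fit was tested on simulated independent normal values with dye offsets. These were neither centred nor rounded, so the test does not cover those features of the deposited values.

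Names came from the platform annotation of 2007, updated through Entrez identifiers for 16205 probes: 16885 probes had 1 symbol, 143 several and 6204 none listed. A gene counts as called if any of its probes is. Named genes were the 15 furthest out on each side, up to 12 per side special to Sir2OE1, those called on opposite sides, up to 5 per side larger in Sir2OE2, called list members, the sirtuins, Pdx1 and Ins2, from probes with 1 symbol that do not share the common ratio. That ratio, within 1 percentage point on at least 5 arrays, was shared by 329 probes, 0 of them called. Members and lists were chosen with earlier results of these data known. Alternatives were other adjustments, thresholds, centring, scaling, dye terms, array subsets, a slide block and each array left out.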

Additional observations from a re-analysis of the deposited data

Results flagged for a closer look

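A test of the difference between Sir2OE1 and Sir2OE2 picked out 75 probes, which share the Neo pool and so say nothing of the spread of the control. On the log2 scale, Sir2OE1 minus Sir2OE2 was 3.07 for Kansl1l, 2.61 for Defb41, 2.52 for Klra14, 1.81 for Atad3a, 1.37 for Rgs3 and 1.21 for Msmo1 among genes called on the plus side in Sir2OE1. Among genes called on its minus side it was -2.70 for Dlk1, -2.08 for Upk3a, -2.05 for Acot7, -1.72 for Csn3, -1.59 for Epcam, -1.47 for Upp1, -1.47 for Gsdma, -1.36 for Pttg1 and -1.10 for Tspan6.

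Genes with a called difference that were further out in Sir2OE2 were 9230117E06Rik at -3.91, Psors1c2 at -3.05, Magea3 at -2.72, Igfbp4 at -2.62, Matr3 at -2.60, Stmn2 at -1.85, Sod3 at -1.69, Ldha at -1.33, Speer8-ps1 at 1.56, Necab2 at 1.56, Sult1d1 at 2.70 and Ang at 1.43. Prss23 at 1.68 and Ucn3 at -1.27 lay further out in Sir2OE1, though not called there.

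In 2 of 15 genes examined, 1 Sir2OE2 array stood apart from the other 3: Csn3 at 0.71 on slide 1 and Pttg1 at 0.70 on slide 2. Chance picks out about 1 in 20 groups in this way. Sir2OE1, with 3 arrays, was not examined for this.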

How the results depend on the processing

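Counts are given for Sir2OE1, for the difference from Sir2OE2 and for probes special to Sir2OE1, in that order, where 247, 75 and 20 were reported. Median centring, complete probes, no filter, robust moderation and leaving out the shared ratio kept all 3 within 1.5 times. Benjamini-Yekutieli adjustment gave 56, 4 and 3, a threshold of 0.01 gave 96, 28 and 10, and an absolute log2 value of at least 1 gave 127, 70 and 12. With the 7 overexpression arrays alone, which leave fewer residual degrees of freedom, the counts were 104, 23 and 7, and with the 3 Sir2OE1 arrays alone 36. Scaling arrays to one spread gave 254, 144 and 35. A single dye term gave 406, 166 and 54 and no dye term 628, 282 and 109; both hold all 247, and both count the direction that the centring set to 0 as free of spread. With no sign turned all 3 counts were 0.

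Leaving out 1 array at a time gave 47 to 221, 18 to 42 and 6 to 13. Of 59 named probes called in Sir2OE1, 17 kept the call without any 1 array, and of 29 called differences 12 did. Whether slide numbers pair the lines is not known. After the line and dye terms, deviations of same-numbered slides had r of -0.245, -0.228 and -0.355. Those terms themselves tie the deviations of the lines to each other, so these values cannot decide it. With the slide number as a replicate block the counts were 77, 10 and 5.

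With no sign turned, values changed sign for Uchl1 (-0.31), Sod3 (-0.36), Jdp2 (-0.12), Esrp1 (0.0487), Mest (0.10), Rapgef2 (0.061), Cyct (0.0448), Krt19 (0.0305), Slc2a2 (0.19), Ddc (0.21) and 1 Ccnd2 probe (0.15), and for the differences of Sult1d1 (-0.0744), Prss23 (-0.21) and Ucn3 (0.0262). None of these passed in that setting. No other alternative turned the direction of a named result.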
